A study of Mus musculus with 35 samples.

Results

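Monocyte-derived Kupffer cells (moKCs) from livers of mice fed a western diet (WD) for 24 weeks were set against the other 2 macrophage populations of those livers, to ask which genes lay above or below both and which lay on the line between them. The resident Kupffer cells (ResKCs) form one end of that line and the CLEC4F- macs, recruited macrophages without the Kupffer cell lectin CLEC4F, form the other. The comparison used 17 of the 35 bulk RNA-seq samples of the series, chosen by their labels: 5 of moKCs, 6 of ResKCs and 6 of CLEC4F- macs. All 17 were of C57Bl/6J mice, and the labels name no other allele or agent for any group. The study's methods state that diet experiments used males only and that the WD was rich in fat and cholesterol with fructose and sucrose in the drinking water. Mice went on the diet at 5 weeks of age. The populations are defined by surface protein (CLEC4F+TIM4+ ResKCs, CLEC4F+TIM4- moKCs, CLEC4F-TIM4- macs), so a moKC is a cell with CLEC4F and without TIM4, whose descent from a monocyte was not traced in these libraries. The study describes its n for these populations as mice, but the labels tie no sample to a mouse, and the p-values measure the spread between these samples.

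Kupffer cells are the macrophages that live in the liver sinusoids, where they clear particles and blood cells from the circulation. When they are lost, monocytes enter the liver, take up the niche and switch on Kupffer cell genes, while a few genes such as Timd4 (the phosphatidylserine receptor TIM4) come on late or not at all. In fatty liver, monocytes also give rise to macrophages that lack CLEC4F and express lipid-associated genes such as Spp1, which encodes osteopontin.

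Each sample held from 11568590 to 15163845 reads assigned to genes, and levels are given as CPM (reads of a gene scaled to a common total), on which 3 reads correspond to 0.198 to 0.259 CPM. Of 54735 genes, 13421 passed the filter of over 1 CPM in at least 5 of 35 samples. The sort was visible in its own genes. Clec4f was at 7326 to 11618 CPM in moKCs, at 11174 to 15581 in ResKCs and at 294 to 1539 in 5 of the 6 CLEC4F- mac samples. Replicate 4 of the CLEC4F- macs stood apart with 5488 CPM of Clec4f and with the lowest Ccr2 (the chemokine receptor of monocytes) of its group, 217 CPM. Timd4 was at 2.85 to 30.3 CPM in moKCs against 547 to 885 in ResKCs. Replicate 1 of the moKCs also stood apart, with 12.1 CPM of Ccr2 where the other 4 moKC samples had 25 to 38.1, and with 1.74 CPM of Spp1 where they had 28.2 to 32.7. These samples were kept, and calls above or below both that rest on either are marked as such. In bulk samples such as these, fewer cells of a type and less RNA per cell cannot be told apart.

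Most genes that were off the midpoint of the other populations in moKCs differed from one of these populations alone in the test, and few differed from both. Against the mean of the 2 group means on the log2 scale, 69 genes (0.514% of those tested) were higher in moKCs and 55 (0.41%) were lower, in edgeR's quasi-likelihood test at an adjusted p under 0.05. Without moKC replicate 1 these counts were 13 and 22, and without replicate 4 of the CLEC4F- macs they were 276 and 117. They were 45 and 30 without moKC replicate 3, 25 and 20 without moKC replicate 5, and 30 and 30 without CLEC4F- mac replicate 2. The fit of the 17 samples alone left 6 higher and 5 lower genes, the 6 including Mmp9, Sh3d19, Cd207, Vsig4 and Ifi208 and the 5 including Efr3b, Timd4, C2 and Bmpr1a. With library sizes alone in place of trimmed-mean factors, the split was 60 higher and 79 lower. By their mean levels, 46 of the 69 higher genes lay above both other populations and 23 lay between them, nearer to ResKCs. Of the 55 lower genes, 36 had means below both, 11 lay nearer to ResKCs and 8 nearer to CLEC4F- macs. Tested against each population in turn, 8 of the 69 higher genes differed from both, all of them above both, and 8 of the 55 lower genes did, 5 of them below both and 3 strictly between, while 59 and 35 differed from CLEC4F- macs alone and 2 and 12 from ResKCs alone.

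Genes that differed from both populations in the same direction are the ones off the line on any scale. There were 8 above both (0.0596% of tested genes), namely Cd207, Mmp9, Hoxb5, Gm15050, Ifi44, Ifih1, Sh3d19 and Mtus1, and 8 below both (0.0596%), namely Efr3b, Rpl39l, Fn1, Npc1, Selplg, St6galnac4, Slc43a2 and Card19. Many more genes, 157 (1.17%), differed from both in opposite directions and so lay strictly between the ends. The larger of the 2 p-values of each gene, adjusted over all genes, passed for 0 genes above or below both, with 0.194 as the lowest adjusted p. Unadjusted, that larger p was under 0.05 for 63 genes above and 83 below. The count above both was 4 without moKC replicate 4. The count below both was 5 without ResKC replicate 1 or 2 and without moKC replicate 4 or 5, and 4 without moKC replicate 2. The alignments are named in either of 2 ways in the deposited tables, and each way covers samples of all 3 populations. With the first way alone 16 genes lay above both and 1 below both, and with the second, 0 and 0. Of the 16, Cd207, Ifi44 and Sh3d19 were among the 8 named here, and others included the stellate cell markers Dcn and Reln. The 1 below, Acot11, was not among the 8. The first way covers moKC replicates 1 and 2, whose summed endothelial markers were the highest of the moKCs (1893 and 1500 CPM).

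**Figure D1:**
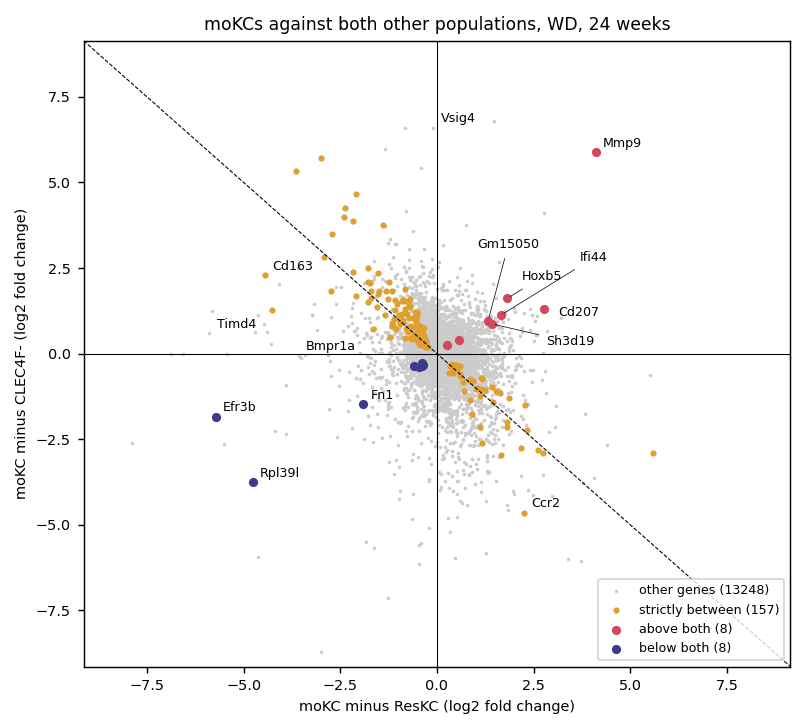
The plane plots, for each of the genes tested, the log2 difference of moKCs from ResKCs (horizontal axis) against that from CLEC4F- macs (vertical axis), as fitted by edgeR. The 8 genes above both sit at the upper right, the 8 below both at the lower left, and the 157 strictly between at the upper left and lower right.

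Among the genes above both, Cd207 had the highest level. It encodes langerin, a C-type lectin that is a Kupffer cell gene in the mouse and is best known from Langerhans cells. The 5 moKC samples held 1169, 899, 600, 1588 and 710 CPM. ResKCs ranged from 82.6 to 239 CPM (median 127) and CLEC4F- macs from 181 to 630 (median 412). Each moKC sample lay above every ResKC sample, and the lowest of them overlapped the highest CLEC4F- mac sample. The log2 difference was 2.77 ± 0.33 (standard error) from ResKCs (edgeR adjusted p = 1.07e-06) and 1.30 ± 0.32 from CLEC4F- macs (adjusted p = 0.00372). The order of the 3 populations was thus not that of the line, since ResKCs had the lowest levels.

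The gene lies on chromosome 6 of mm10 (chr6:83671215-83677857, minus strand), and the 250 bases before its start site are shown because they end in a match to the AP-1 letters TGAGTCA, read here from the other strand and set in capitals.
Cd207: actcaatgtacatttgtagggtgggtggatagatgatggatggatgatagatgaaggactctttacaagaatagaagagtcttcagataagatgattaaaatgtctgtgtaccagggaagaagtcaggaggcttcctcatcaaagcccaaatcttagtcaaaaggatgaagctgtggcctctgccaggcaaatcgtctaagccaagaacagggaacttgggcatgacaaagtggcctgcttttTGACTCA
The sequence is from RefSeq on GRCm38.p6 (chr6:83677858-83678107, minus strand). TGAGTCA was searched on both strands in the window of 250 bases before to 50 after each start site. It was in 5.2% of all 32851 such windows and in 3.91% of those of tested genes. Of the 8 genes above both, 5 had a window, and Cd207 was the one among them that held these letters. The match is a description of the letters and not of binding.

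Mmp9 encodes a gelatinase that neutrophils and activated macrophages release to cut extracellular matrix. Its level in moKCs was 510 CPM in replicate 1 and 15.8, 10.1, 20.7 and 14.2 in the other 4. The other populations had 2.1 to 9.47 CPM (ResKCs, median 6.7) and 0.284 to 4.65 (CLEC4F- macs, median 1.51). All moKC samples lay above all others, with replicate 1 far above the rest of its group. The log2 difference of 4.11 ± 0.81 from ResKCs (adjusted p = 0.00229, edgeR) was 1.19 without that sample and no longer passed (adjusted p = 0.261). From CLEC4F- macs it was 5.88 ± 0.89 (adjusted p = 1.28e-05), and 2.97 without the sample. With limma-voom the difference of Mmp9 from ResKCs did not pass either (2.40, adjusted p = 0.118), and DESeq2 gave Mmp9 no adjusted p. The gene is at chr2:164940780-164955850 on the plus strand. Of 13 matrix metalloproteinase and inhibitor genes tested, Mmp9 was the one called off the midpoint, where all genes had 0.514% above and 0.41% below. Mmp2, another gelatinase gene, was higher in moKCs than in ResKCs (log2 difference 1.68, adjusted p = 0.000594) and lay near the CLEC4F- mac end.

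Ifi44 and Ifih1, which type I interferon induces, were above both populations, and Ifi208, of the interferon-inducible PYHIN family, had moKC samples above all others. Ifi44 (chr3:151730922-151749960, minus strand) was at 147, 135, 174, 120 and 205 CPM in moKCs. In ResKCs it ranged from 24 to 101 CPM with a median of 43.4, and in CLEC4F- macs from 34.7 to 116 with a median of 62.9. No sample overlapped, although replicate 4 of each of the other populations came close to the lowest moKC sample. It was higher than in ResKCs by 1.65 ± 0.25 on the log2 scale (edgeR adjusted p = 9.1e-05) and higher than in CLEC4F- macs by 1.12 ± 0.25 (adjusted p = 0.00143).

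Ifih1 encodes MDA5, a sensor of double-stranded RNA in the cytosol. Its moKC levels were 76.1, 76.9, 78.8, 79.3 and 89.1 CPM, against 65.1 to 71 in ResKCs (median 66.6) and 58.9 to 79.3 in CLEC4F- macs (median 66.1). The groups of moKCs and CLEC4F- macs overlapped, and the log2 difference was 0.25 ± 0.07 from each population (adjusted p = 0.0416 from ResKCs and 0.0101 from CLEC4F- macs). Without moKC replicate 5, the highest, the difference from ResKCs did not pass (adjusted p = 0.142). Ifih1 stayed above both in 8 of the 17 fits that left out 1 sample. Ifi208 was at 47.5, 34.9, 39.9, 31.3 and 35 CPM in moKCs, at 22 to 28.8 in ResKCs (median 25.4) and at 16.4 to 26.2 in CLEC4F- macs (median 17.4). Its difference from ResKCs did not pass (log2 0.55, adjusted p = 0.076), that from CLEC4F- macs did (1.02, adjusted p = 5.74e-05), and so did that from the midpoint (0.78, adjusted p = 0.00559). Ifi208 belongs to a family of near-identical copies, so its reads may be shared with them.

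The core of the interferon-stimulated response element, taken as GAAA, NN and GAAA in a row, on either strand, was sought in the same windows, and those of Ifi208 and Ifih1 are shown because they held it, in capitals.
Ifi208: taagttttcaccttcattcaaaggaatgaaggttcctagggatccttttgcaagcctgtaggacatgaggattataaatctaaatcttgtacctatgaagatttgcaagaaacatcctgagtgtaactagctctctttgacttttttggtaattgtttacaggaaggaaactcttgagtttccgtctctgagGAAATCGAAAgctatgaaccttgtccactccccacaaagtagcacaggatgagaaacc
Ifih1: aagagaatcGAAACAGAAAccgatctg
The first is the 250 bases before the start of Ifi208 (chr1:173673415-173673664, plus strand), and the second is 27 bases around the match of Ifih1 (chr2:62646206-62646232, minus strand), both from RefSeq on GRCm38.p6. These letters were in 3.44% of all windows, in 3.29% of those of tested genes and in 19 of the 33 windows of listed interferon-stimulated genes (57.6%; 28 of 39 genes had a window). The window of Ifi44 held no match, which says nothing of any factor there. Of the 39 interferon-stimulated genes tested, 3 were called above the midpoint (Ifi44, Ifih1 and Ifi208) and 0 below it, with 20 above and 0 below at an unadjusted p under 0.05, where all genes had 6.38% above and 4.65% below. At the adjusted limit all genes had 0.514% above and 0.41% below. The median difference of the 39 genes from the midpoint was 0.226 on the log2 scale, against 0.0113 over all genes tested. Against the ends, 4 of the 39 were higher than in ResKCs and 14 higher than in CLEC4F- macs, and 0 were lower than in either. Over all genes tested, 0.991% were higher and 2% lower than in ResKCs, and 9.34% were higher and 7.09% lower than in CLEC4F- macs.

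Hox cluster genes, which encode homeobox transcription factors and neighbouring long non-coding RNAs, were low in all 3 populations and higher in moKCs for a few members. Hoxb5 (chr11:96303336-96306121, plus strand) was at 8.2, 3.7, 3.22, 7.87 and 4.17 CPM in moKCs. ResKCs had 0.175 to 2.48 CPM (median 1.63) and CLEC4F- macs had 0.832 to 2.34 (median 1.87), so that the groups did not overlap. The log2 difference was 1.81 ± 0.44 from ResKCs (edgeR adjusted p = 0.0169) and 1.61 ± 0.44 from CLEC4F- macs (adjusted p = 0.00851). Without moKC replicate 4 the first was 1.64 with an adjusted p of 0.0619. Gm15050, a transcript of the Hoxa cluster (chr6:52172881-52174059, plus strand), was at 2, 1.71, 1.57, 2.15 and 2.05 CPM in moKCs, at 0.29 to 1.1 in ResKCs (median 0.799) and at 0.453 to 1.56 in CLEC4F- macs (median 0.824). It too did not overlap, and it was higher by 1.32 ± 0.32 (adjusted p = 0.0173) and 0.96 ± 0.32 (adjusted p = 0.0337). Without CLEC4F- mac replicate 2, Gm15050 lost its second call (adjusted p = 0.0942). Without moKC replicate 1 it was not above both either, and it stayed above both in 9 of the 17 fits that left out 1 sample. Hotairm1, a non-coding RNA of the same cluster, was at 2.47 to 4.2 CPM in moKCs. It was called off the midpoint (log2 1.18, adjusted p = 0.0245) and against CLEC4F- macs (1.32, adjusted p = 0.0029), and did not pass against ResKCs (1.04, adjusted p = 0.063). Whether the counting used strand is not given in the sources used here. Reads of Gm15050 and Hotairm1 may thus include those of any transcript that overlaps them on the other strand. Of the 8 tested genes of the Hox list, which does not hold Gm15050, 2 were called above the midpoint (Hoxb5 and Hotairm1) and 0 below. Over all genes tested, 0.514% were called above the midpoint and 0.41% below. Gm15050 was called above it too (log2 1.14, adjusted p = 0.0321, edgeR). Hoxb4 was higher in moKCs than in ResKCs (log2 1.91, adjusted p = 0.0053) and did not pass against CLEC4F- macs. Meis1, which encodes a Hox cofactor, was lower than in ResKCs (-0.93, adjusted p = 0.0173).

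Sh3d19 and Mtus1 complete the genes above both. Sh3d19 (chr3:85971109-86130526, plus strand), whose product is an adaptor with SH3 domains, was at 60.7, 49.7, 53.4, 48.6 and 58.8 CPM in moKCs. Its ResKC levels ran from 14.6 to 38.2 (median 17.6) and its CLEC4F- mac levels from 21.7 to 45.2 (median 27). All moKC samples were higher than all others, with replicate 4 of each other population nearest to them. The log2 differences were 1.41 ± 0.23 (edgeR adjusted p = 0.000272) and 0.87 ± 0.23 (adjusted p = 0.00719). Mtus1 (chr8:40990914-41133726, minus strand), which encodes a microtubule-associated protein, was at 304, 224, 189, 250 and 229 CPM, against 139 to 198 in ResKCs (median 154) and 153 to 209 in CLEC4F- macs (median 182). One moKC sample overlapped both groups. The differences of Mtus1 were 0.56 ± 0.14 (adjusted p = 0.0163) and 0.40 ± 0.14 (adjusted p = 0.0395). Without moKC replicate 1 the second did not pass (adjusted p = 0.175). Mtus1 stayed above both in 10 of the 17 fits that left out 1 sample.

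**Figure D2:**
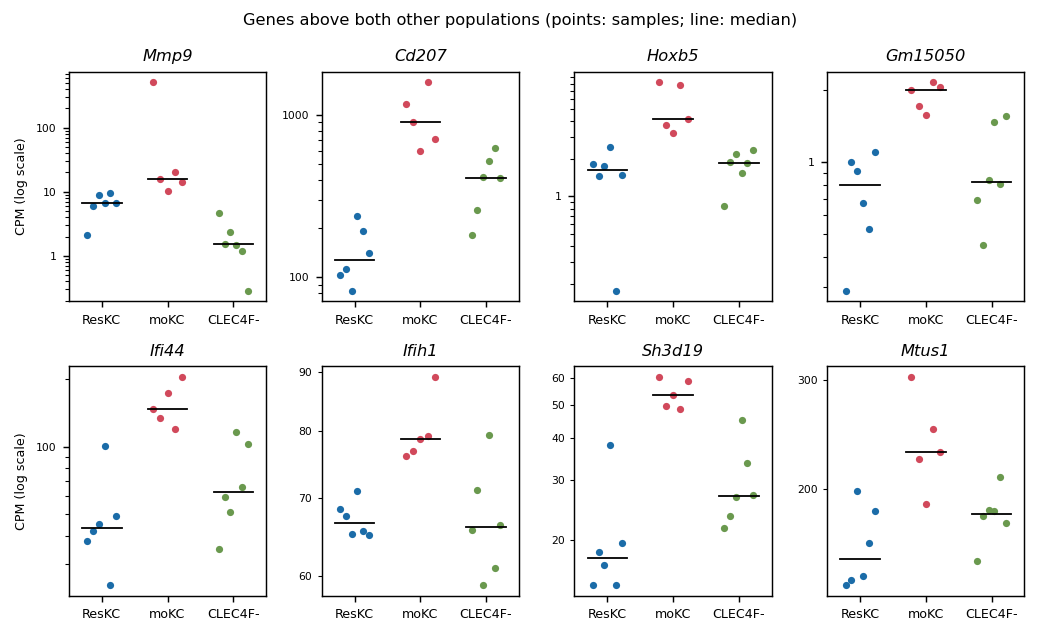
Points give the CPM of each sample on a log axis for the genes above both, with the median as a line, in ResKCs (6 samples), moKCs (5) and CLEC4F- macs (6). For Mmp9, Hoxb5, Gm15050, Ifi44 and Sh3d19 all 5 moKC points lie above those of both other groups, and for Mmp9 the point at 510 CPM is moKC replicate 1.

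Over all genes tested, 7 (0.0522%) had every moKC sample above every sample of both other populations and 4 (0.0298%) had every one below. The 7 were Mmp9, Sh3d19, Ifi44, Gm15050, Hoxb5, Ifi208 and Hnmt, the last of which inactivates histamine by methylation. The 4 were Selplg, Efr3b, Csf2rb2 and Parvg.

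Of the genes below both populations, Efr3b had the largest difference from ResKCs. It encodes a protein that anchors a phosphatidylinositol kinase complex at the plasma membrane (chr12:3962554-4038915, minus strand). The moKC samples held 13, 5, 3, 0 and 8 reads of it, or 0.839, 0.356, 0.225, 0 and 0.585 CPM. ResKCs held 7.54 to 48.5 CPM (median 17.1) and CLEC4F- macs 0.922 to 2.02 (median 1.62), and no moKC sample overlapped either. The log2 difference was -5.71 ± 0.53 from ResKCs (edgeR adjusted p = 4.73e-09) and -1.84 ± 0.54 from CLEC4F- macs (adjusted p = 0.0156). Rpl39l, a paralog of a ribosomal protein gene whose reads may be split with its copies, was at the limit of detection. Its 5 moKC samples held 0, 0, 1, 0 and 0 reads, against medians of 0.635 CPM in ResKCs (range 0 to 1.09) and 0.275 CPM in CLEC4F- macs (range 0 to 0.658), so no fold is given.

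Fn1 and Selplg act in adhesion. Fn1, the fibronectin gene, was at 101, 61.5, 67.5, 56.9 and 57.6 CPM in moKCs (chr1:71585520-71653200, minus strand). ResKCs spread from 95 to 686 (median 176) and CLEC4F- macs from 73.4 to 369 (median 178). Replicate 1 of the moKCs overlapped both groups and the other 4 lay below both. The log2 difference was -1.91 ± 0.49 (edgeR adjusted p = 0.0225) from ResKCs and -1.48 ± 0.48 (adjusted p = 0.0302) from CLEC4F- macs. Without ResKC replicate 4 the difference of Fn1 from ResKCs did not pass (adjusted p = 0.095). Fn1 stayed below both in 10 of the 17 fits that left out 1 sample. Selplg, which encodes the selectin ligand PSGL-1 (chr5:113818536-113832644, minus strand), was at 153, 180, 195, 169 and 191 CPM in moKCs, at 201 to 243 in ResKCs (median 230) and at 195 to 253 in CLEC4F- macs (median 228). The groups did not overlap, though the highest moKC and the lowest CLEC4F- mac sample round to the same value. Selplg was lower by 0.35 ± 0.09 (adjusted p = 0.0235) and 0.34 ± 0.09 (adjusted p = 0.00665) on the log2 scale. Without moKC replicate 4 the highest of its adjusted p-values was 0.0736. Without moKC replicate 1 Selplg was not below both either, and it stayed below both in 12 of the 17 fits that left out 1 sample.

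The remaining genes below both had small differences. Npc1, whose product carries cholesterol out of lysosomes, was at 27.8, 45.8, 53.9, 49 and 44.9 CPM in moKCs, at 51.2 to 69.2 in ResKCs (median 63.3) and at 52.8 to 63.1 in CLEC4F- macs (median 58.3). Its lowest sample was moKC replicate 1, and moKC replicate 3 overlapped both groups. The log2 difference of Npc1 was -0.46 ± 0.13 (edgeR adjusted p = 0.0399) from ResKCs and -0.40 ± 0.13 (adjusted p = 0.0263) from CLEC4F- macs, with an adjusted p of 0.123 without moKC replicate 1. Card19, a gene for a CARD-domain protein, was at 42.9, 35.4, 31.7, 41.7 and 34.2 CPM, against 47.3 to 64.7 in ResKCs (median 56.5) and 41.7 to 56.7 in CLEC4F- macs (median 45.8). The moKCs overlapped the CLEC4F- macs but not the ResKCs, and the differences were -0.59 ± 0.10 (adjusted p = 0.000252) and -0.35 ± 0.10 (adjusted p = 0.00903). Slc43a2, an amino acid transporter gene, lay at 188 to 246 CPM in moKCs, 246 to 309 in ResKCs and 233 to 319 in CLEC4F- macs, lower by 0.38 (adjusted p = 0.0191) and 0.36 (adjusted p = 0.00622). St6galnac4, a sialyltransferase gene, lay at 78.4 to 109 CPM, 96.8 to 135 and 90.6 to 121 in the same order, lower by 0.39 (adjusted p = 0.022) and 0.28 (adjusted p = 0.0483). Fn1, Npc1 and St6galnac4 did not pass against the midpoint (adjusted p = 0.0585, 0.0585 and 0.0577). Of the calls on these 4 genes, Card19 alone remained with each of the 17 samples left out in turn. Npc1, Slc43a2 and St6galnac4 stayed below both in 8, 13 and 6 of these 17 fits. St6galnac4 was not below both without moKC replicate 1.

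**Figure D3:**
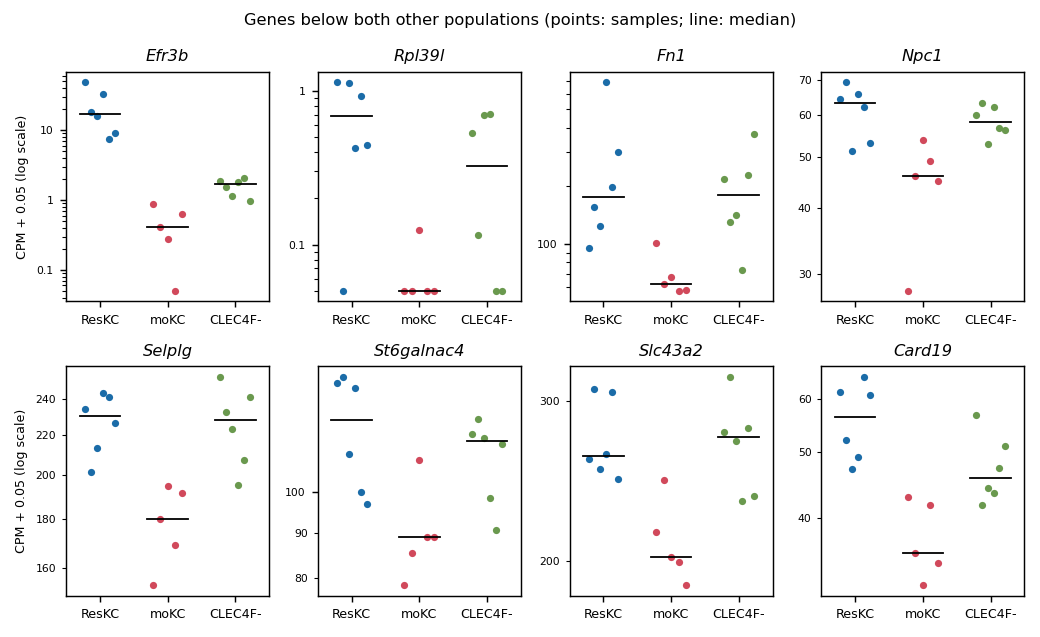
Points give the CPM of each sample plus 0.05, on a log axis, for the genes below both, with the median as a line, in ResKCs (6 samples), moKCs (5) and CLEC4F- macs (6). For Efr3b and Selplg all moKC points lie below those of both other groups, and for the others they overlap at least one group.

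The genes on the line differed from both ends in opposite directions. Their count of 157 was 86 without ResKC replicate 1, 102 without ResKC replicate 2, and 68, 79 and 81 without moKC replicate 2, 4 and 5. Of the 157, 113 were higher in ResKCs than in CLEC4F- macs and 44 were lower. Place on the line is expressed as a position, the log2 difference of moKCs from CLEC4F- macs divided by that of ResKCs from CLEC4F- macs, so that 1 is the ResKC level and 0 the CLEC4F- mac level. Positions of the 157 ran from 0.230 to 0.728 with a median of 0.523, a range the call itself limits. A position of 0.4 to 0.6 was held by 103 of them, over 0.6 by 40 and under 0.4 by 14. In 45 of the 157, moKC samples overlapped neither group.

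Of the 8 genes named on the line, 5 had higher levels in ResKCs. Btbd11, which encodes an ankyrin-repeat protein, was at 54, 41.3, 45.8, 44.5 and 44.4 CPM in moKCs, between 96.3 to 197 in ResKCs (median 167) and 5.06 to 24.3 in CLEC4F- macs (median 8.24). It lay 1.78 ± 0.26 below ResKCs (edgeR adjusted p = 4.64e-05) and 2.10 ± 0.26 above CLEC4F- macs (adjusted p = 8.94e-07) on the log2 scale. Hgsnat, an enzyme of lysosomal heparan sulphate breakdown, was at 277, 187, 217, 193 and 218 CPM, between 375 to 523 (median 412) and 86.8 to 158 (median 113). Sdc2, the heparan sulphate proteoglycan syndecan 2, was at 24 to 33.6 CPM in moKCs, 38.2 to 92.7 in ResKCs and 3.05 to 15.6 in CLEC4F- macs. Angptl7, a secreted angiopoietin-like protein, was at 7.04 to 9.59, 18.6 to 38.6 and 0.902 to 6.28 CPM in that order. In each of these genes the moKC samples overlapped neither group. Lysmd2 was placed likewise at low levels, 1.07 to 2.93 CPM in moKCs, with a position of 0.465. On mean CPM all 5 lay nearer to CLEC4F- macs, at 0.239 (Btbd11), 0.338 (Hgsnat), 0.322 (Sdc2), 0.228 (Angptl7) and 0.238 (Lysmd2).

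Trerf1, Ms4a6b and Sirpb1b were on the line with higher levels in CLEC4F- macs. Trerf1, a transcriptional regulator, was at 8.72, 15.2, 8.47, 19.4 and 14.3 CPM in moKCs, between 2.45 to 7.65 in ResKCs (median 4.7) and 23.1 to 54.6 in CLEC4F- macs (median 31.4). Ms4a6b, a membrane protein of myeloid cells, was at 99.9 to 153 CPM, between 54.2 to 94.2 and 170 to 261. Sirpb1b, of the signal-regulatory receptor family with near-identical copies that may share reads, was at 11.1 to 16.2 CPM, between 5.01 to 10.3 and 16.5 to 28.5. On mean CPM the positions of Trerf1, Ms4a6b and Sirpb1b were 0.725, 0.601 and 0.621, nearer to ResKCs. The chemokine receptor gene Cx3cr1 was also strictly between but varied more, with 11.2 CPM in moKC replicate 1 and 87.6, 49.2, 124 and 88.8 in the others. Its ResKC range was 3.77 to 26 CPM (median 6.02) and its CLEC4F- mac range 281 to 687 (median 586), so moKC replicate 1 alone fell within a group.

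Over the whole axis moKCs lay nearer to ResKCs. Between the ends 1399 genes (10.4%) differed with an adjusted p under 0.05 and a log2 difference over 1. Of these, 711 were called between moKCs and CLEC4F- macs alone, 116 between moKCs and ResKCs alone, 114 in both at opposite signs, 2 in both at the same sign, and 456 in neither. Their median position was 0.649 (quartiles 0.45 and 0.805), and on mean CPM it was 0.683. The position was over 0.6 in 809 genes, from 0.4 to 0.6 in 295 and under 0.4 in 295. It exceeded 1 in 86 genes (6.15%) and was below 0 in 44 (3.15%). The 589 genes higher in ResKCs had a median of 0.69 and the 810 higher in CLEC4F- macs one of 0.62, but on mean CPM the order turned, at 0.545 and 0.784.

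Sample by sample, the median position of the 5 moKC samples was 0.814, 0.558, 0.7, 0.526 and 0.637 (SD 0.115). The highest was replicate 1. ResKC samples ranged from 0.898 to 1.09, above every moKC sample. CLEC4F- mac samples ranged from -0.329 to 0.0476 except replicate 4, at 0.38. The genes were chosen by the difference between ResKCs and CLEC4F- macs, so the places of these samples were largely set in advance. Leaving out any 1 sample moved the median over genes between 0.607 and 0.687, less than the SD between moKC samples.

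**Figure D4:**
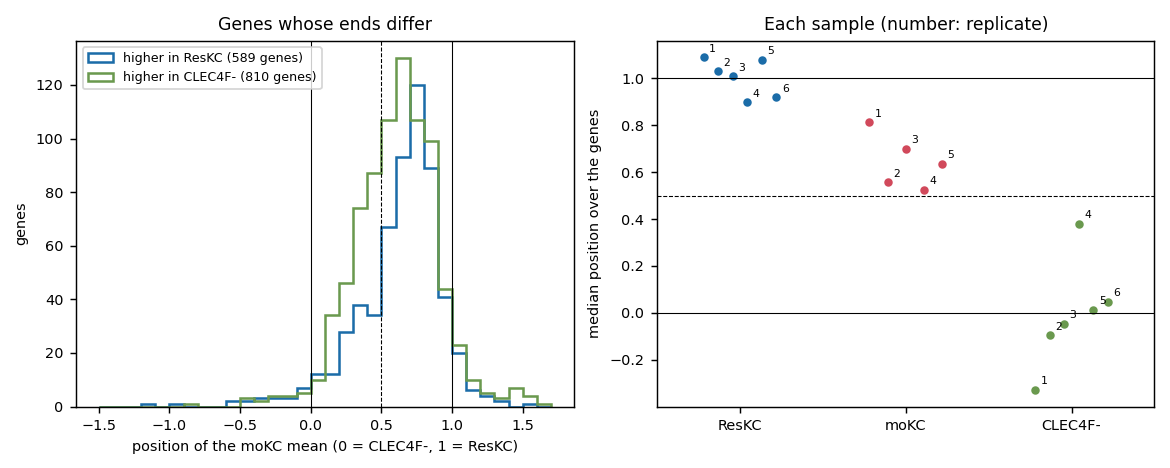
The histogram counts the 1399 genes that differ between the ends by their position (0, the CLEC4F- mac level; 1, the ResKC level), with 1 line for the 589 genes higher in ResKCs and 1 for the 810 higher in CLEC4F- macs. The points give the median position of each sample over these genes. The moKC samples lie from 0.526 to 0.814, between the ResKC samples and the CLEC4F- mac samples.

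The listed programmes took different places on the line, beside the median position of 0.649 over all 1399 genes. Their counts against each end stand beside 0.991% of all genes higher and 2% lower than in ResKCs, and 9.34% higher and 7.09% lower than in CLEC4F- macs. Calls off the midpoint stand beside 0.514% of all genes above it and 0.41% below. Kupffer identity genes, which cells switch on after entering the liver, lay mostly at the ResKC end. Of 20 tested, 14 were higher in moKCs than in CLEC4F- macs and 2 were lower than in ResKCs, and 10 of the 13 that differed between the ends had positions over 0.6 (median 0.805). The other 3 had positions under 0.4, with Cd207 the lowest at -0.887. The list holds Clec4f, which the sort selected. Vsig4, the complement receptor CRIg, was at 2852, 2747, 2750, 2984 and 3451 CPM in moKCs and at 2772 to 3441 in ResKCs (median 3199), with 9.63 to 50.7 in CLEC4F- macs (median 33.2). The ResKC and moKC samples of Vsig4 overlapped throughout, and the position was 0.985. Fabp7, a fatty acid binding protein gene, was at 276 to 513 CPM in moKCs and 268 to 426 in ResKCs, against 35.9 to 209 in CLEC4F- macs. Vsig4, Fabp7 and Cd207 were the 3 of the list called above the midpoint, and 0 were called below. The edgeR call of Fabp7 held in 12 of the 17 fits that left out 1 sample (highest adjusted p = 0.17), and those of Vsig4 and Cd207 in all 17.

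Residency genes, which the study names for ResKCs, lay at the other end. All 6 differed between the ends, and 5 of them, Timd4 included, were lower in moKCs than in ResKCs. Timd4 was at 9.17, 16.9, 3.07, 30.3 and 2.85 CPM in moKCs, against 547 to 885 in ResKCs (median 749) and 3.43 to 14.6 in CLEC4F- macs (median 7.66). TIM4 was part of the sort, so this level is a check and not a result. C2, a complement component, was at 1.35 to 2.92 CPM in moKCs, 23.4 to 63.3 in ResKCs and 0.453 to 2 in CLEC4F- macs, and Xlr was at 1.42 to 5.17, 10.9 to 21.8 and 1.16 to 5.97 CPM in that order. In both genes moKC samples overlapped the CLEC4F- macs and not the ResKCs. Cd163, the scavenger receptor for haemoglobin, was at 113, 64.3, 33.5, 94.5 and 38.3 CPM, above the CLEC4F- macs (9.01 to 28.9, median 11.6) and far below the ResKCs (880 to 2007, median 1616), with a position of 0.341. On mean CPM the position of Cd163 was 0.0371. Marco, a scavenger receptor gene, averaged 22.3 ± 18.1 CPM (SD, n = 5) in moKCs against 1242 ± 669 in ResKCs (n = 6). C6, a complement component, was the exception, with 528 ± 421 CPM in moKCs, 1333 ± 284 in ResKCs and a position of 0.736. Timd4, Cd163, C2 and Xlr were called below the midpoint.

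Other genes shared the level of CLEC4F- macs. Bmpr1a, a receptor of bone morphogenetic proteins, was at 1.68, 3.27, 3, 3.26 and 2.34 CPM in moKCs, 17.9 to 40 in ResKCs (median 33.2) and 1.73 to 4.31 in CLEC4F- macs (median 2.7). It was 3.58 ± 0.22 lower than in ResKCs on the log2 scale (edgeR adjusted p = 2.21e-13). It was the 1 of 26 BMP and TGF-beta receptor and SMAD genes called off the midpoint, where all genes had 0.514% above and 0.41% below. Raver2, an RNA-binding protein gene, was at 0 to 2.52 CPM in moKCs, 9.03 to 23.7 in ResKCs and 0.194 to 1.21 in CLEC4F- macs. Colec12, a scavenger lectin gene chosen after its values were seen, averaged 8.60 CPM in moKCs, 183 in ResKCs and 5.67 in CLEC4F- macs.

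MHC class II presentation genes, which load and display peptides for CD4+ T cells, lay nearer to CLEC4F- macs for the classical molecules. Of 12 tested, 7 were higher in moKCs than in ResKCs and 4 were lower than in CLEC4F- macs. H2-Aa averaged 3684 ± 761 CPM in moKCs (SD, n = 5), 1517 ± 397 in ResKCs and 5542 ± 972 in CLEC4F- macs, 1.28 ± 0.25 above ResKCs on the log2 scale (edgeR adjusted p = 0.00206) with a position of 0.315. H2-Ab1 (position 0.302), H2-Eb1 (0.328), Cd74 (0.353), the transactivator Ciita (0.342) and H2-DMb1 (0.168) were each higher than in ResKCs too. H2-DMb2, H2-Ob and H2-Oa lay nearer to ResKCs, at 0.755, 0.709 and 0.845. Ifi30, a thiol reductase of antigen processing, was on the line at 0.538. Against the midpoint 0 of the 12 were called by edgeR, by limma-voom or by DESeq2, with 2 higher at an unadjusted p under 0.05. Over all genes tested, 6.38% were higher at that limit.

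Monocyte genes lay near the ResKC level. Of 15 tested, 11 were lower in moKCs than in CLEC4F- macs, and the 9 that differed between the ends had positions from 0.663 to 1.4 (median 0.888). Ccr2 was at 12.1, 36.7, 25, 31.7 and 38.1 CPM in moKCs, 4.65 to 6.62 in ResKCs (median 6.33) and 217 to 1131 in CLEC4F- macs (median 719). It overlapped neither group and was both strictly between and below the midpoint (log2 -1.20 ± 0.28, adjusted p = 0.0321, edgeR). The midpoint call of Ccr2 held in 12 of the 17 fits that left out 1 sample (highest adjusted p = 0.142). S100a6, a calcium-binding protein gene, was at 2.06 to 3.29 CPM in moKCs, 0.943 to 4.37 in ResKCs and 11.5 to 108 in CLEC4F- macs. S100a4 and F13a1 (coagulation factor XIII) were below the midpoint as well, at means of 0.125 and 3.40 CPM in moKCs against 6.99 and 65.0 in CLEC4F- macs. The midpoint calls of S100a4, S100a6 and F13a1 held in 16, 14 and 9 of these 17 fits. Ms4a4c was strictly between, at 25.6 to 40.2 CPM in moKCs, 11.7 to 25 in ResKCs and 64.7 to 188 in CLEC4F- macs. With Vsig4, which was higher in ResKCs, Chil3, Mgl2 and Fam83f were the 4 genes of largest difference named near the ResKC end. Chil3, Mgl2 and Fam83f were at most 0.716 CPM in any moKC sample, against medians of 15, 8.84 and 6.07 CPM in CLEC4F- macs.

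Lipid-associated macrophage genes lay at the ResKC end as well. Of 17 tested, 11 were lower in moKCs than in CLEC4F- macs, 1 was higher and 0 passed against ResKCs, and all 8 that differed between the ends had positions over 0.6 (median 0.789). Spp1 was at 1.74, 32.7, 28.2, 29.8 and 31.1 CPM in moKCs, at 3.59 to 45.1 in ResKCs (median 9.47) and at 205 to 598 in CLEC4F- macs (median 358). Replicate 1 of the moKCs lay below both groups and the other 4 within the ResKC range. Gpnmb and Trem2, a membrane glycoprotein and a lipid receptor, averaged 271 ± 171 and 144 ± 60.6 CPM in moKCs (SD, n = 5), 191 ± 168 and 107 ± 55 in ResKCs and 1267 ± 315 and 307 ± 48.7 in CLEC4F- macs. Lgals3, which encodes galectin-3, was the 1 gene of the list called below the midpoint (log2 -0.39, adjusted p = 0.0499), and the call held in 3 of the 17 fits that left out 1 sample (highest adjusted p = 0.248).

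**Figure D5:**
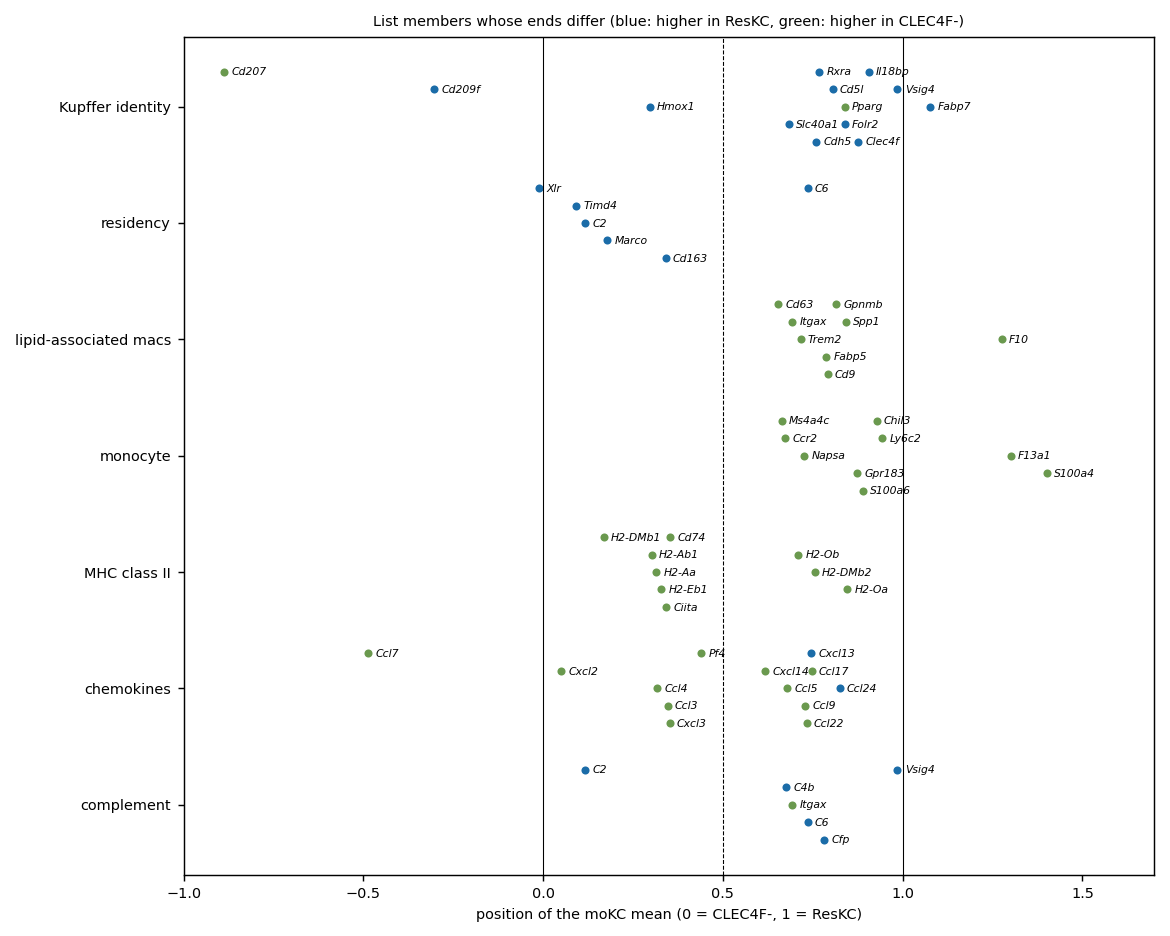
Each row is a gene list, with a point for the position of each reported member that differs between the ends (0, the CLEC4F- mac level; 1, the ResKC level) blue where the gene was higher in ResKCs and green where it was higher in CLEC4F- macs. Residency and MHC class II genes have medians of 0.147 and 0.342, while monocyte, Kupffer identity and lipid-associated genes have medians of 0.888, 0.805 and 0.789.

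Further lists had few or no members called off the midpoint by edgeR, against 0.514% of all genes above it and 0.41% below. At an unadjusted p under 0.05, all genes had 6.38% above and 4.65% below. Complement genes had 1 above (Vsig4), 1 below (C2) and 1 strictly between among 22 in edgeR, with 9 higher and 1 lower unadjusted. For these genes limma-voom called 3 higher and 0 lower, and DESeq2 2 higher and 1 lower. Of 18 LXR and cholesterol efflux genes, Npc1 was below both and Apoc1, an apolipoprotein gene at 315 to 886 CPM in moKCs, was strictly between with a position of 0.592. Against the midpoint edgeR called 0 of the 18, with 3 higher and 5 lower unadjusted. For them limma-voom and DESeq2 each called 1 lower. Chemokines had 0 of 22 called by edgeR, limma-voom or DESeq2, with 6 above at an unadjusted p under 0.05, and positions on both sides (7 over 0.6, 5 under 0.4 of 13). Cell cycle genes had 0 of 38, and 0 at an unadjusted p under 0.05. Lipid droplet genes had 0 of 22, with 2 lower unadjusted, and Notch pathway genes 0 of 23, with 2 higher and 2 lower unadjusted, in edgeR. For Notch genes limma-voom called 1 lower and DESeq2 2 lower, while for the lipid droplet and cell cycle genes both called 0. Of 10 immediate-early and heat-shock genes, which respond to handling of cells, edgeR called 0, with 2 higher unadjusted. The 31 genes that the study chose as a moKC signature had 9 above the midpoint and 5 above both, which is no independent evidence since these samples served to choose them.

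Genes off the midpoint outside these lists, chosen after their values were seen, included receptors. Ccr3, a receptor of eosinophil chemokines, averaged 16.5 CPM in moKCs, 3.12 in ResKCs and 10.3 in CLEC4F- macs, 1.54 above the midpoint on the log2 scale (edgeR adjusted p = 0.0358), and differed from ResKCs (2.40, adjusted p = 0.00216) and did not pass against CLEC4F- macs (0.68, adjusted p = 0.355). The purinergic receptor genes P2ry12 and P2ry13 were 0.49 and 0.45 above and did not pass against ResKCs.

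The same genes can be read in ResKCs of the standard diet (SD) at 24 weeks, a comparison that shares the WD ResKC samples. The alignments of all 6 SD samples were named in the first way, against 3 of the 6 WD samples. Diet and naming could thus not be fully told apart. For Ifi44, Sh3d19, Fn1 and Cd207 alike, the highest WD ResKC sample was replicate 4 (101, 38.2, 686 and 239 CPM). Of the 8 genes above both, Ifi44 and Sh3d19 were higher in WD than SD ResKCs and Cd207 was lower, where 4.84% of all genes were higher and 3.87% lower. Ifi44 ranged from 16.9 to 32.3 CPM in SD ResKCs (median 25.4), and the WD samples were 1.01 ± 0.25 higher on the log2 scale (edgeR adjusted p = 0.00961). Sh3d19 ranged from 7.6 to 13.9 CPM (median 8.25) and was 1.10 ± 0.23 higher (adjusted p = 0.00282). Cd207 ranged from 348 to 1250 CPM in SD ResKCs (median 634) and was 2.23 ± 0.32 lower in WD ResKCs on the log2 scale (adjusted p = 3.14e-05). The moKC samples, at 600 to 1588 CPM, thus overlapped SD ResKCs for Cd207 and lay above them for Ifi44 and Sh3d19. Of the 8 below both, Fn1 was higher in WD ResKCs (2.49 ± 0.47, adjusted p = 0.000931), with 13.4 to 98.8 CPM in SD ResKCs (median 41.1), a range that overlapped the moKC values.

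Markers of other liver cells were present in all 3 populations. No marker list had a member called off the midpoint by edgeR. At an unadjusted p under 0.05, 3 of 12 sinusoidal endothelial, 3 of 11 stellate cell and 1 of 5 platelet and erythroid markers were higher. At that limit 1 each of 4 neutrophil, 4 T and NK cell and 6 dendritic cell markers was lower. Over all genes tested, 6.38% were higher and 4.65% lower at that limit. DESeq2 called 1 endothelial and 1 platelet marker higher and 1 T and NK cell marker lower, and limma-voom 1 platelet marker higher. Summed endothelial markers reached 1893, 1500, 593.2, 692.5 and 844.2 CPM in moKCs, against 546.3 to 1182 in ResKCs and 705.1 to 1116 in CLEC4F- macs, with replicate 1, the sample with high Mmp9, the highest. Hepatocyte markers summed to 1952 to 3989 CPM in moKCs, within the ranges of ResKCs (1426 to 4573) and CLEC4F- macs (1020 to 4079). Summed B cell markers were at 46.24 to 188.7 CPM in moKCs, 19.81 to 56.02 in ResKCs and 54.58 to 577.5 in CLEC4F- macs, and dendritic cell markers at 14.23 to 36.02, 11.92 to 24.63 and 24.77 to 259.7. Neutrophil markers summed to 65.49 to 85.48 CPM in moKCs, 71.65 to 97.46 in ResKCs and 74.01 to 123.2 in CLEC4F- macs. Of the 10 listed, Ly6g and Camp were at 0 in every sample of all 3 populations. Ngp was at 0 in every moKC and CLEC4F- mac sample. With the level of the hepatocyte markers as a covariate in edgeR, Mtus1 was no longer above both and St6galnac4 no longer below both. Casp4 and Il15 were newly above both in that fit. Beyond it, the part of such cells in the results above was not tested.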

How the data were processed

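RNA of sorted liver macrophages was sequenced by the authors as single reads, aligned with HISAT2 (2.2.0) to mm10 and counted per gene with featureCounts (2.0.0). The deposited values are raw read counts per gene and sample, with 11568590 to 15163845 assigned reads in each of the 17 samples compared. The annotation, strand and multi-mapping settings are not given in the sources used here. Gene positions and symbols were taken from the GENCODE table supplied with the reference, and sequences from RefSeq (GRCm38.p6).

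Genes over 1 CPM in at least 5 of 35 samples were tested with edgeR (4.0.16, R 4.3.3), with trimmed-mean factors, 1 mean for each of the 6 groups and the quasi-likelihood test, with Benjamini-Hochberg adjustment over all genes tested and a call at an adjusted p under 0.05. Contrasts were moKCs against ResKCs, against CLEC4F- macs and against the mean of both. The other 18 samples entered only the estimate of the spread and the SD comparison. For 5 WD samples at 12 weeks the diet field names the standard diet, and their titles were followed. Alternatives used limma-voom (limma 3.58.1), DESeq2 (1.42.0) and the settings given under the processing limits.

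Named genes above or below both were at most 12 a side, by the smaller of both differences, with no overlap and a mean of at least 5 CPM, which 4 genes met above and 1 below. On the line they were the 8 of largest difference between the ends at positions of 0.4 to 0.6 with no overlap, and near an end the 4 beyond 0.9 and the 4 under 0.1. Members of gene lists called above both, below both or strictly between were added, and genes outside this rule (Card19, Slc43a2, St6galnac4, Mtus1, Rpl39l, Ifi208, Hnmt, Csf2rb2, Parvg, and those called off the midpoint alone) were chosen after their values were seen. The members and gene lists were chosen with earlier results of these data known. Results for a few genes are not reported here.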

Additional observations from a re-analysis of the deposited data

Results flagged for a closer look

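Among 174 combinations of a measure (a named gene, a summed marker list or the median position) and a group of 5 or 6 samples, 19 held a sample whose gap to its nearest neighbour, relative to the range of its group, was over Dixon's 95% limit, where chance gives about 1 in 20. Values are log2 CPM. Among the genes above or below both, Mmp9 was at 9 in moKC replicate 1 (the next sample at 4.38) and at 1.17 in ResKC replicate 1 (next 2.6). Hoxb5 was at -1.63 in ResKC replicate 5 (next 0.682), Sh3d19 at 5.26 in ResKC replicate 4 (next 4.29), Ifih1 at 6.48 in moKC replicate 5 (next 6.31), Npc1 at 4.8 in moKC replicate 1 (next 5.49) and Rpl39l at -2.16 in moKC replicate 3 (next -2.75). In moKC replicate 1, Spp1 was at 0.919 (next 4.82) and Lgals3 at 9.39 (next 9.84). In CLEC4F- mac replicate 4, Cd163 was at 4.86 (next 3.79) and Ifi208 at 4.72 (next 4.17). In ResKC replicate 4, Bmpr1a was at 4.17 (next 5.01), C2 at 4.56 (next 5.69), Xlr at 3.47 (next 4.15), Sdc2 at 5.26 (next 6.09), Lysmd2 at 1.82 (next 2.46) and Mgl2 at 0.436 (next -1.73). Ccr2 was at 2.26 in ResKC replicate 5 (next 2.57) and Hgsnat at 9.03 in ResKC replicate 1 (next 8.72).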

How the results depend on the processing

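The counts of genes off the midpoint (69 higher, 55 lower), above both (8), below both (8) and strictly between (157) depended on the settings, while the median position did not, at 0.595 to 0.687 over the alternatives run. limma-voom gave 104 higher. DESeq2 gave 136 higher, 115 lower and 14 above both. No filter on low counts gave 35 lower, 5 above, 94 between. The 17 samples alone gave 6 higher, 5 lower and 85 between. A log2 difference over 1 left 19, 27, 4, 3 and 54 of the 5 classes in order, and an adjusted p under 0.01 left 12, 9, 4, 1 and 50. A covariate of immediate-early genes gave 15 below both. Adjusting the larger of both p-values gave 0 above and 0 below. Leaving out 1 sample gave 13 to 276 higher, 20 to 117 lower, 4 to 12 above both, 4 to 9 below both and 68 to 223 between. Without moKC replicate 1, 12 of the 13 higher and 18 of the 22 lower genes were among those of all samples, and without CLEC4F- mac replicate 4 all 69 and 55 were. Of the alternatives added after seeing the data, leaving out both samples gave 150 higher, 85 lower and 274 between, the samples of the first way of naming alignments gave 5 lower, 16 above, 1 below and 14 between, and those of the second 1 higher, 0 lower, 0 above, 0 below and 3 between. The cause of these shifts was not tested, beyond the smaller number of samples or stricter limit that some settings bring. Of the values of single named genes under all alternatives, 2677 kept their side of the threshold, 498 no longer passed, 22 newly passed and 0 changed direction. Genes near 3 reads in a sample are limited by depth, Rpl39l, Efr3b and the lowest Hox genes among them.

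Samples of a group share replicate numbers with the other groups, and not every same-numbered pair deviated together (correlations of -0.157 to 0.149 for moKCs with ResKCs, -0.118 to 0.095 for moKCs with CLEC4F- macs and 0.0242 to 0.263 for ResKCs with CLEC4F- macs), so the number was not taken as a pairing. With the replicate number as a block, the fit of the 17 samples gave 5 higher, 7 lower, 6 above both, 5 below both and 37 strictly between. Cd207, Ifi44 and Sh3d19 were among the 6 above, and Efr3b, Card19 and Slc43a2 among the 5 below, while the other genes named above or below both were not.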
